A study of Homo sapiens with 8 samples.

Results

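The respiratory chain and ATP synthase genes were taken as every gene whose symbol starts with NDUFA, NDUFB, NDUFC, NDUFS, NDUFV, UQCR, COX4 to COX8 or ATP5, together with the succinate dehydrogenase genes and CYC1, without the NDUFAF assembly factors and without pseudogenes. The rule picked genes by symbol only, but it was set with earlier results of these data known. It found 67 genes with 100 probe sets, of 11963 genes and 22215 probe sets measured. Complex I held 28 of them, complex II 3, complex III 7, complex IV 13 and complex V 16. Where a gene had several probe sets, the one brightest on average over the 8 arrays stood for it. SDHB, COX4I2, COX6B2 and COX8C were not analysed here.

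The arrays were made from 2 established human leukemia lines, the promyelocytic HL-60 and the monocytic THP-1. Each line was grown in serum-supplemented RPMI-1640 and exposed for 48 h to 100 µM diclofenac, an anti-inflammatory drug that blocks cyclooxygenases, or to its solvent DMSO alone. Each of the 4 combinations had 2 arrays, titled as biological replicates. One culture line stands for each leukemia type, so a difference between HL-60 and THP-1 cannot be told apart from other differences between these particular lines. Total RNA had been turned into labelled cRNA and hybridised to an Affymetrix human array. The values are therefore transcript signals, and fewer cells of a type and less RNA per cell cannot be told apart.

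The chain passes electrons from nutrients to oxygen in the inner mitochondrial membrane. Complex I takes them from NADH, complex II from succinate, complex III passes them from ubiquinol to cytochrome c, and complex IV hands them to oxygen. Complexes I, III and IV pump protons, and complex V, the ATP synthase, lets the protons flow back to make ATP. The 67 genes are nuclear genes whose proteins are imported into the mitochondrion. Each complex has core subunits that carry the redox or catalytic centres and accessory subunits that hold it together, and a few subunits have tissue isoforms.

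Median deposited intensity was 109.6 to 150.2 on 7 arrays and 241.2 on replicate 2 of THP-1 with DMSO. Background was set on each array at the 95th percentile of the 27 probe sets for bacterial controls. It was 33.2 to 60.2 on those 7 arrays and 239 on that one, where 50.3% of probe sets exceeded it against 66.4 to 72.1% elsewhere. Results were also computed without that array, and those values are given for medians, for some counts and for members that moved without it. Of the granulocyte precursor markers 5 of 6 exceeded background on both HL-60 DMSO arrays and 5 of 6 on both THP-1 DMSO arrays, and of the monocyte markers 3 of 5 and 4 of 5 did. MPO did not exceed background in HL-60 with DMSO. The summed signal of the granulocyte precursor markers was 34542 to 35514 in HL-60 with DMSO and 40684 to 57121 in THP-1 with DMSO. AZU1, PRTN3, ELANE and MS4A3 were higher in THP-1 with DMSO, by 2.47, 1.66, 0.27 and 0.41 log2 units, and CTSG was lower by -0.35, all called by limma. The granulocyte precursor list was thus mostly higher in the line labelled monocytic. Of the monocyte markers CSF1R was called higher in THP-1, by 1.24, and CD14, FCGR1A, LYZ and ITGAM were not called with DMSO. CSF1R just passed (limma adjusted p = 0.0454), while MPO, at 1.29, just failed (limma adjusted p = 0.0502). Without THP-1 DMSO replicate 2, CSF1R gave 1.17, MPO 1.64, ELANE 0.24, CD14 1.03 and FCGR1A 0.47. With diclofenac AZU1, PRTN3, MS4A3 and CTSG were called in the same directions, CSF1R and ELANE were not called, and CD14 was called higher. The part of these lineage differences in the results below was not tested. Of other cell types' markers, 1 of 4 for T cells, 1 of 2 for B cells, 1 of 2 for erythroid cells, 0 of 4 for epithelial cells and 2 of 3 for fibroblasts exceeded background on both HL-60 DMSO arrays. On both THP-1 DMSO arrays the counts were 1, 0, 1, 0 and 1. CD3G, ALAS2, EPCAM and KRT19 exceeded it on no array, whereas HBB did on 8 and CD3E, CD2 and COL1A1 on 7 each.

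Of the 67 genes, 64 exceeded background on all 8 arrays. COX7A1, the muscle and heart isoform of a small complex IV subunit, exceeded it on none. COX6A2, another striated muscle isoform, and NDUFB7 exceeded it on 7 arrays each. The median normalised signal of the 67 genes lay between 12.08 and 12.27 log2 units on every array. These are bright probe sets, and counts are therefore set beside 1646 genes of like brightness, those with a mean signal of 10.33 to 13.21 log2 units.

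The first comparison asked how THP-1 differs from HL-60 in these genes with DMSO alone. Signals were compared as log2(intensity + 50) after quantile normalization, and a gene was called when its limma p-value, adjusted by Benjamini-Hochberg over all 22215 probe sets, was under 0.05. THP-1 was higher than HL-60 in 23 of the 67 genes and lower in 10, with 28 genes of complex I giving 11 and 5, complex II 1 and 0, complex III 2 and 0, complex IV 3 and 3, and complex V 6 and 2. The 33 called genes are 49.3% of the 67. Over all probe sets 15.3% were called in this comparison, 7.56% higher and 7.72% lower, but among the genes of like brightness the share was 48.1%. The share of called genes was therefore close to that of other bright genes. The median difference was 0.21 log2 units, against 0.04 for genes of like brightness and 0.03 for all genes.

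Under a scaling that only centres each array on its median, the median of the 67 genes was -0.13, that of genes of like brightness was -0.29 and that of all genes was -0.07. On the deposited scale the 3 medians were 0.11, -0.05 and 0.17. The sign of the family's median thus depends on the scaling, while its place above other bright genes was the same under these 3. Without replicate 2 of THP-1 with DMSO the median was 0.18, against 0.04 for genes of like brightness, and the share of members called was again close to theirs. COX5B, COX6A1 and NDUFA7 then lost their calls, and COX7C (0.50), NDUFB6 (0.51) and UQCRC2 (-0.33) gained one.

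The second comparison set the lines side by side with diclofenac present, on 4 arrays of which none enters the first comparison. THP-1 was higher in 20 genes and lower in 9, which is 43.3% of the 67. Over all probe sets 13.0% were called here, 6.76% higher and 6.26% lower, and of the genes of like brightness 44.8% were. The median difference was 0.17, against 0.04 for genes of like brightness. Replicate 2 of THP-1 with DMSO lies outside this contrast but enters its error. Without it the median was again 0.17, against 0.04 for genes of like brightness. More genes were then called, among the members as among the genes of like brightness.

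The same 23 genes were called in both comparisons, 14 higher and 9 lower in THP-1, and each had the same sign in both. They are 69.7% of the DMSO calls and 79.3% of the diclofenac calls. Over all genes the shared calls were 65.3% and 75.7%, so this persistence is near that of the whole array. The arrays of the lines did not overlap in 76.1% of the members with DMSO and 83.6% with diclofenac, against 49.5% and 58.9% of all probe sets and 76.9% and 84.8% of the genes of like brightness. In each of the 23, all 4 THP-1 arrays lay on one side of all 4 HL-60 arrays. These genes were picked by calls on the same arrays, so that separation was largely given in advance. Of the 23, 12 belong to complex I, 1 to complex II, 1 to complex III, 3 to complex IV and 6 to complex V.

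**Figure D1:**
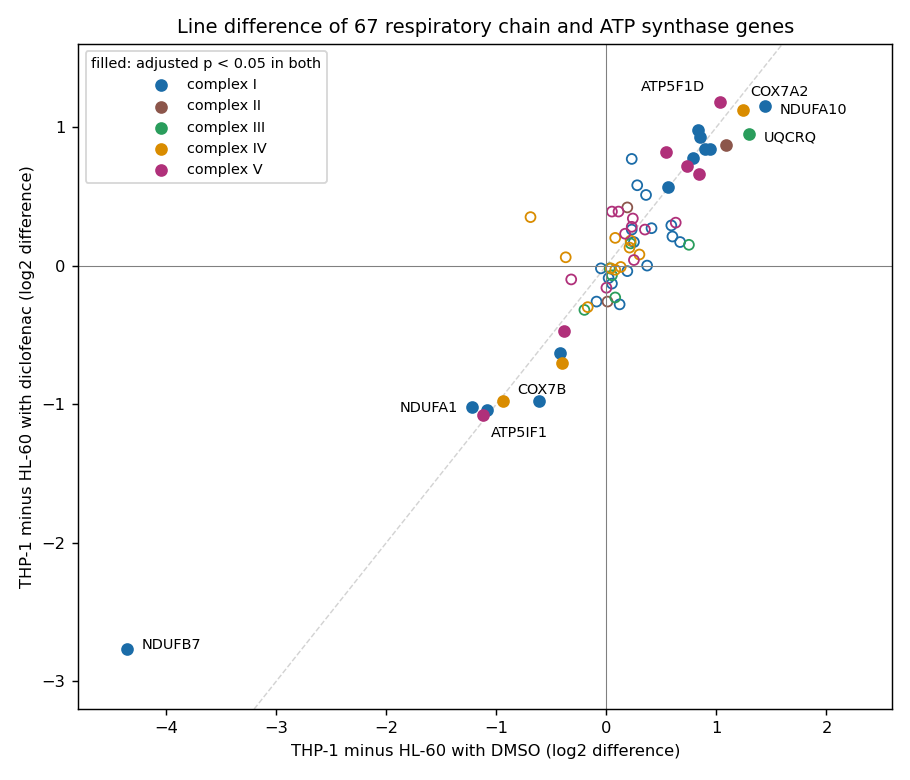
Log2 difference of THP-1 minus HL-60 for the 67 genes with DMSO (x axis) and with diclofenac (y axis), coloured by complex; filled points are the 23 genes with an adjusted p under 0.05 in both, open points the rest, and the dashed line marks equal differences. NDUFB7 stands alone at -4.36 and -2.77, and the other filled points lie between -1.22 and 1.44 near the line of equal differences.

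Among complex I genes NDUFB7 showed the widest difference. It encodes an accessory subunit on the intermembrane side of the membrane arm. Its brighter probe set read 4151 and 4993 in HL-60 with DMSO, 5493 and 4894 in HL-60 with diclofenac, 220.6 and 227.3 in THP-1 with DMSO, and 695.4 and 681 in THP-1 with diclofenac. Every THP-1 array was thus far below every HL-60 array. In normalised log2 units these were 12.10 and 12.27, 12.41 and 12.19, 8.24 and 7.42, and 9.53 and 9.52. THP-1 was 20.5-fold lower with DMSO (log2 difference -4.36 ± 0.23, SE, limma adjusted p = 1.18e-05, 2 arrays a group). With diclofenac it was 6.83-fold lower (-2.77 ± 0.23, limma adjusted p = 0.000127). On THP-1 replicate 2 with DMSO the 227.3 lay under that array's background of 239, and without that array the DMSO difference was -4.05. Among all 11963 genes it ranked 15th from the lowest with DMSO and 43rd with diclofenac.

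NDUFA1, a small membrane-spanning accessory subunit encoded on the X chromosome, was the next lowest with DMSO. Its normalised signal was 12.52 and 12.74 in HL-60 with DMSO, 12.96 and 12.80 with diclofenac, 11.63 and 11.19 in THP-1 with DMSO, and 11.97 and 11.75 with diclofenac. The lines did not overlap in either condition. The difference was -1.22 ± 0.15 with DMSO (limma adjusted p = 0.000991) and -1.02 ± 0.15 with diclofenac (limma adjusted p = 0.00275). NDUFA8, which like NDUFB7 faces the intermembrane space, was lower by -1.09 ± 0.27 and -1.04 ± 0.27. Its THP-1 DMSO arrays read 10.40 and 9.38, and without the second of them the DMSO difference was -0.59. NDUFB11, another X-linked accessory subunit, differed by -0.61 and -0.98, and NDUFB4, a membrane arm subunit, by -0.42 and -0.63. The DMSO difference of NDUFB11 was -0.42 without THP-1 DMSO replicate 2.

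NDUFA10, an accessory subunit on the matrix side of the membrane arm, had the highest difference with DMSO over all arrays, and without THP-1 DMSO replicate 2 it was 1.34, under the 1.39 of COX7A2. Its signal was 9.58 and 9.53 in HL-60 with DMSO and 9.64 and 9.73 with diclofenac. In THP-1 it read 10.86 and 11.13 with DMSO and 10.84 and 10.83 with diclofenac. The difference was 1.44 ± 0.13 with DMSO, or 2.71-fold (limma adjusted p = 0.000152), and 1.15 ± 0.13 with diclofenac (limma adjusted p = 0.000547). NDUFS1, the large core subunit that carries iron-sulfur clusters in the matrix arm, was higher by 0.90 and 0.84. NDUFS6, a zinc-binding accessory subunit, was higher by 0.94 and 0.84. The accessory subunits NDUFA3, NDUFB5, NDUFC1 and NDUFB1 were higher by 0.85 and 0.93, 0.83 and 0.98, 0.79 and 0.78, and 0.56 and 0.57.

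Complex I thus held accessory subunits called in opposite directions. NDUFV1, the core subunit that binds NADH and flavin, differed by 0.37 with DMSO (limma adjusted p = 0.124), or 0.16 without THP-1 DMSO replicate 2, and by -0.00 with diclofenac. NDUFV2, NDUFS3, NDUFS4, NDUFS7, NDUFAB1, NDUFA6, NDUFB2 and NDUFB8 were called in neither comparison. The 3 probe sets of NDUFB8 ranged from 0.09 to 0.64 with DMSO and from -0.15 to 0.35 with diclofenac. NDUFA2, NDUFA7, NDUFA13 and NDUFB3 were called higher with DMSO alone, at 0.60, 0.59, 0.41 and 0.67. NDUFA5, NDUFA9 and NDUFB6 were called higher with diclofenac alone, at 0.77, 0.58 and 0.51. Whether these 7 genes differ between the conditions is the test of the interaction, in which no member was called.

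In complex II, SDHA, the flavoprotein that oxidises succinate, was higher in THP-1. It read 9.79 and 9.79 in HL-60 with DMSO, 9.83 and 9.80 with diclofenac, 10.95 and 10.80 in THP-1 with DMSO, and 10.74 and 10.63 with diclofenac. The difference was 1.09 ± 0.12 with DMSO (limma adjusted p = 0.000392) and 0.87 ± 0.12 with diclofenac (limma adjusted p = 0.00145). SDHC and SDHD, the membrane anchors, were not called by their brightest probe sets, at 0.19 and 0.01 with DMSO and 0.42 and -0.26 with diclofenac. The 4 probe sets of SDHC, each above background on all 8 arrays, ranged from 0.19 to 0.65 with DMSO and from 0.23 to 0.77 with diclofenac.

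In complex III, UQCRQ, a small ubiquinone-binding subunit, was the gene that differed in both conditions. It read 11.48 and 11.23 in HL-60 with DMSO, 11.56 and 11.50 with diclofenac, 12.65 and 12.67 in THP-1 with DMSO, and 12.45 and 12.50 with diclofenac. The difference was 1.30 ± 0.09 with DMSO, or 2.47-fold (limma adjusted p = 5.08e-05), and 0.95 ± 0.09 with diclofenac (limma adjusted p = 0.000304). CYC1, the cytochrome that passes electrons to cytochrome c, was higher by 0.75 with DMSO (limma adjusted p = 0.00668) and differed by 0.15 with diclofenac (limma adjusted p = 0.641). The core proteins UQCRC1 and UQCRC2 gave 0.05 and -0.20 with DMSO and -0.07 and -0.32 with diclofenac, none of them called.

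In complex IV the small subunits diverged. COX7A2, the broadly expressed isoform of the subunit whose muscle form is COX7A1, read 12.64 and 12.63 in HL-60 with DMSO and 12.78 and 12.98 with diclofenac. All 4 THP-1 arrays lay above these, at 13.74 to 14.02. It was higher in THP-1 by 1.24 ± 0.10 (limma adjusted p = 9.78e-05) and 1.12 ± 0.10 (limma adjusted p = 0.000179). COX7B, a small X-linked subunit, read 13.36 and 13.42, then 13.31 and 13.40 in HL-60, and 12.61 and 12.30, then 12.43 and 12.32 in THP-1, DMSO first. It was lower by -0.94 ± 0.10 (limma adjusted p = 0.000462) and -0.98 ± 0.10 (limma adjusted p = 0.000395). COX5A, a nuclear-encoded subunit on the matrix side, was lower by -0.40 and -0.70.

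COX4I1, the ubiquitous form of the subunit through which ATP allosterically slows the oxidase, differed by 0.08 with DMSO and 0.20 with diclofenac and was called in neither. Its 3 probe sets ranged from 0.08 to 0.73 with DMSO and from 0.19 to 0.57 with diclofenac. COX8A, COX6B1 and COX7A2L, the last a factor in supercomplex assembly, were not called, at 0.08, 0.04 and -0.17 with DMSO. COX6C was called lower with DMSO at -0.37, and COX5B and COX6A1 were called higher at 0.30 and 0.21. Under median centring COX5B read -0.06 and COX6A1 -0.12, so the direction of these small differences depends on the scaling. COXFA4, the current symbol of the gene once named NDUFA4 and now placed in complex IV, did not match the rule and is not counted. It was higher in THP-1 by 0.35 with DMSO (limma adjusted p = 0.0382) and differed by 0.26 with diclofenac (limma adjusted p = 0.134).

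In complex V the catalytic head gave unequal results. ATP5F1B, the catalytic beta subunit, read 12.77 and 12.73 in HL-60 with DMSO, 12.76 and 12.84 with diclofenac, 13.49 and 13.69 in THP-1 with DMSO, and 13.49 and 13.43 with diclofenac. It was higher in THP-1 by 0.84 ± 0.08 (limma adjusted p = 0.000239) and 0.66 ± 0.08 (limma adjusted p = 0.000947). ATP5F1A, the alpha subunit that alternates with beta in the head, read 13.67, 13.61, 13.62 and 13.45 in HL-60 and 13.68, 13.60, 13.43 and 13.32 in THP-1. The lines overlapped with DMSO and not with diclofenac, and it differed by 0.00 ± 0.08 and -0.16 ± 0.08, called in neither. The delta and epsilon subunits of the central stalk, ATP5F1D and ATP5F1E, were higher by 1.03 and 1.18 and by 0.54 and 0.82.

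The 3 genes ATP5MC1, ATP5MC2 and ATP5MC3 encode precursors of the same mature c-ring protein. ATP5MC2 was higher in THP-1 by 0.73 ± 0.07 and 0.72 ± 0.07, and ATP5MC3 was lower by -0.39 ± 0.06 and -0.47 ± 0.06. ATP5MC1 gave 0.05 and 0.39 and was called in neither. ATP5MC2 was read by an _s_at probe set, and its other probe set, above background on 5 of 8 arrays, gave -0.50 with DMSO, uncalled. Both probe sets of ATP5MC3 were called lower in both comparisons, the second by -0.44 each time. Peripheral stalk genes ATP5PD and ATP5PF were called with DMSO alone at 0.35 and 0.63, and ATP5PB with diclofenac alone at 0.39.

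ATP5IF1, the inhibitor that blocks the ATP synthase from running backwards, was lower in THP-1. It read 10.56 and 10.85 in HL-60 with DMSO, 10.82 and 10.81 with diclofenac, 9.78 and 9.39 in THP-1 with DMSO, and 9.55 and 9.92 with diclofenac. The difference was -1.12 ± 0.19 with DMSO, or 2.17-fold lower (limma adjusted p = 0.00427), and -1.08 ± 0.19 with diclofenac (limma adjusted p = 0.00561).

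**Figure D2:**
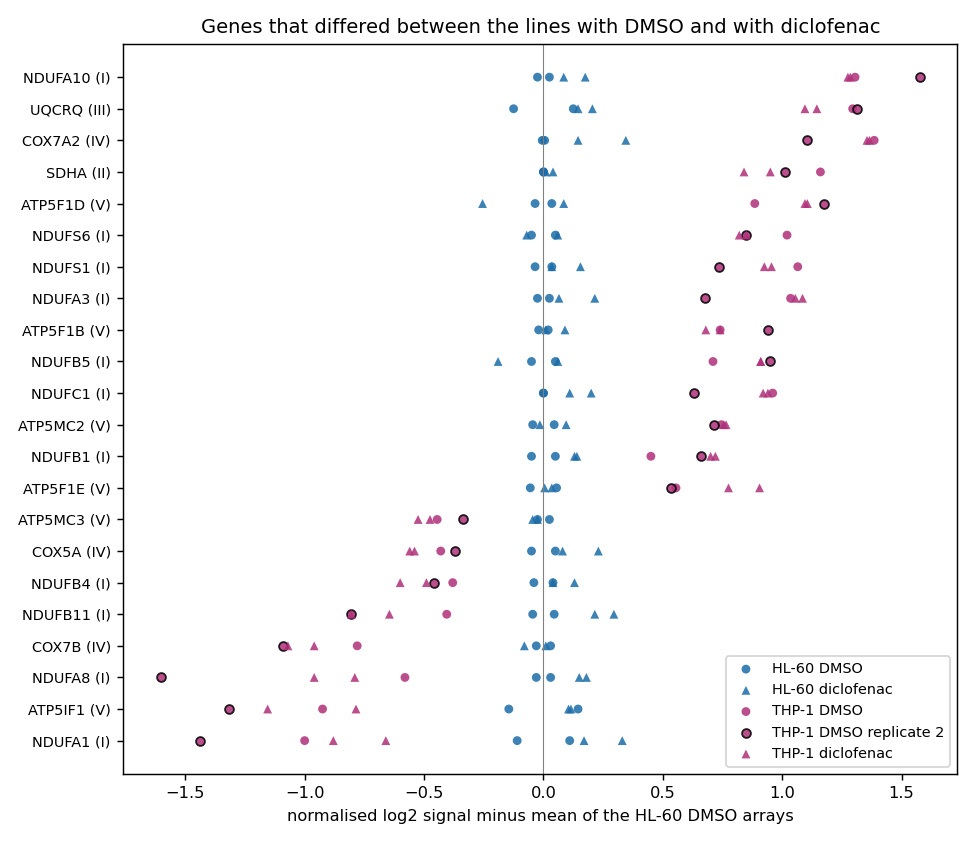
Normalised log2 signal on each of the 8 arrays, minus the mean of the HL-60 DMSO arrays, for 22 of the 23 genes called in both line comparisons, with the complex in brackets; NDUFB7 is left out because its difference of -4.36 would stretch the axis. Points are single arrays, circles DMSO and triangles diclofenac, with the outlined circle for THP-1 DMSO replicate 2. In each row the 4 THP-1 points lie on one side of the 4 HL-60 points, as picking the genes by calls on these arrays made likely.

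Dropping each array in turn, 20 of the 23 genes kept both calls, and all 23 kept their sign in both comparisons under the 15 alternative fits. These fits kept the same probe set per gene, and the 23 were picked by their calls, so their signs had little room to turn. With probe sets not ending in _s_at or _x_at, ATP5MC2 and NDUFB7 turned sign between the lines with DMSO, at -0.50 and 0.59. Of the 23, 12 kept both calls under all 14 fits other than median centring, and 1 under all 15. ATP5F1E, ATP5MC2, ATP5MC3, COX5A, NDUFB1, NDUFB4 and NDUFC1 lost the DMSO call on the deposited scale, all of these but ATP5MC2 and NDUFC1 also without the intensity trend, and ATP5F1B, ATP5MC3 and NDUFB4 lost the diclofenac call on the deposited scale. ATP5IF1, NDUFA8 and NDUFB11 lost at least 1 call when an array was dropped, NDUFA8 without any 1 of the 4 HL-60 arrays or either THP-1 diclofenac array, and NDUFB11 without either HL-60 DMSO array. ATP5IF1 lost its diclofenac call without either HL-60 diclofenac array or THP-1 diclofenac replicate 1. Of all calls, 24 of 33 with DMSO and 22 of 29 with diclofenac held without each array in turn. The others lost with DMSO were ATP5PD, COX5B, COX6A1, COX6C, CYC1, NDUFA7 and NDUFA13, COX6C without HL-60 DMSO replicate 2, and CYC1 and NDUFA13 without replicate 1. With diclofenac they were ATP5MG, ATP5MJ, NDUFA5, NDUFA9 and NDUFB6. When each array was centred on its median in place of quantile normalization, NDUFB7 was the only gene of the 67 called in either comparison, while 1145 and 1028 probe sets in all were still called.

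The promoters of the genes at the ends of the DMSO difference are shown because the members that moved apart can be set beside the motifs known for this gene family. Each is the 250 bases before the annotated start, from RefSeq on GRCh38.p14, 5′ to 3′ on the gene's strand. Capitals mark matches on either strand to the letters searched, which were GCGCA and GCGC with 1 base of any kind between for NRF1, CCGGAAG for ETS factors such as GABP, AAGATGGC for YY1 and GGGGCGG for SP1. NDUFB7 and NDUFA1 were the lowest and NDUFA10 and UQCRQ the highest in THP-1 among the members with an entry. NDUFB7 lies at chr19:14572067-14572316 on the minus strand, NDUFA1 at chrX:119871582-119871831 on the plus strand, NDUFA10 at chr2:240025343-240025592 on the minus strand and UQCRQ at chr5:132866392-132866641 on the plus strand.
NDUFB7: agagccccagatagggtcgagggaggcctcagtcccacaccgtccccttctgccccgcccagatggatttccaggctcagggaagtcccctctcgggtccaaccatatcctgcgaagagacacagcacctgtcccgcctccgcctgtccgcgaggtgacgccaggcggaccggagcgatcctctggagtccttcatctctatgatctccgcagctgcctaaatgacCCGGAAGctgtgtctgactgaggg
NDUFA1: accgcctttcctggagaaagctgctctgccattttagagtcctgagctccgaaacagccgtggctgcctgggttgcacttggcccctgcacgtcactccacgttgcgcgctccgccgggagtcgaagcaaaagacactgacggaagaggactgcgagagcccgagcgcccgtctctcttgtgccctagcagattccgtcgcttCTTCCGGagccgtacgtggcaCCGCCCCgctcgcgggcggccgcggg
NDUFA10: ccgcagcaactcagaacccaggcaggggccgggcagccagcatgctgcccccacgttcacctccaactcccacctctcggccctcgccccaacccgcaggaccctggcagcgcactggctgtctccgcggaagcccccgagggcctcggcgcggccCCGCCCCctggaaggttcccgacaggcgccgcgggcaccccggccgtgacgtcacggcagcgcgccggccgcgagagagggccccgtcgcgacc
UQCRQ: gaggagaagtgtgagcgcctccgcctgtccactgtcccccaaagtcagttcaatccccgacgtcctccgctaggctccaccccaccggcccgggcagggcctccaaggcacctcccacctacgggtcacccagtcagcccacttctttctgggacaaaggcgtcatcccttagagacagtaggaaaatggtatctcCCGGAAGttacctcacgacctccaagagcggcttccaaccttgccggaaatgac

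The NDUFB7 and UQCRQ windows each held 1 ETS match, NDUFA1 1 ETS and 1 SP1 match, and NDUFA10 1 SP1 match, so the lowest and the highest genes shared motif types. Of the 67 genes 58 had a promoter entry. NRF1 letters were found in 11 of them (19%) against 7.65% of 15842 protein-coding promoters, and ETS letters in 14 (24.1%) against 11.8%. YY1 letters were found in 1 (1.72%) against 1.39%, and SP1 letters in 17 (29.3%) against 40%. These are matches of letters and not measured binding.

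With diclofenac the third comparison, HL-60 exposed against HL-60 with DMSO, showed no called member. Over all probe sets 1 was called, or 0.00450%, and 6 (0.0270%) without replicate 2 of THP-1 with DMSO, which enters the error. At an unadjusted limma p under 0.05, 4 members were higher and 6 lower, or 10 of 67, against 4.50% of all probe sets and 219 of the 1646 genes of like brightness. The arrays of the 2 treatments did not overlap in 62.7% of the members, against 39.3% of all probe sets and 50.9% of the genes of like brightness. The median change was 0.03, against 0.00 for genes of like brightness, and 59 of 67 members (88.1%) changed by less than 0.25 log2 units, against 83.4% of genes of like brightness. On the deposited scale the member median was 0.12 beside 0.05 for genes of like brightness and -0.06 for all genes. Under median centring it was 0.28 beside 0.21 and 0.10.

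Complex I ranged from NDUFA9, an accessory subunit at the junction of the arms, at -0.44 ± 0.13 to NDUFB3, a membrane arm subunit, at 0.38 ± 0.09. NDUFA9 read 10.89 and 10.66 with DMSO and 10.46 and 10.22 with diclofenac, and NDUFB3 read 11.06 and 11.09, then 11.48 and 11.44. The arrays of the 2 conditions did not overlap in either gene, but adjusted over all probe sets the limma p-values were 0.762 and 0.657. Complex II ranged from SDHC at -0.18 to SDHD at 0.16. Complex III ranged from UQCR10 at -0.02 to UQCR11 at 0.27, both small subunits, with 6 of 7 genes above 0. Complex IV ranged from COX6A2 at -0.24 to COX7A2 at 0.24, and complex V from the small membrane subunit ATP5MJ at -0.32 to the stalk gene ATP5PF at 0.27. The medians were 0.11, 0.03, 0.17, 0.01 and -0.05 for complexes I to V. For NDUFS1, NDUFV1, SDHA, UQCRC1, CYC1, COX4I1, COX5A, ATP5F1A and ATP5F1B the changes were 0.10, 0.22, 0.03, 0.01, 0.18, -0.17, 0.15, -0.10 and 0.05.

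The fourth comparison, THP-1 with diclofenac against THP-1 with DMSO, had 1 called member, NDUFB7, which was higher. Over all probe sets 30 were called, or 0.135%, and 60 (0.270%) without replicate 2 of THP-1 with DMSO. At an unadjusted limma p under 0.05, 5 members were higher and 6 lower, against 10.6% of all probe sets and 424 of the 1646 genes of like brightness. The treatments did not overlap in 52.2% of the members, against 39.6% of all probe sets and 55.1% of the genes of like brightness. The median change was -0.05, against -0.01 for genes of like brightness, and -0.04 without that replicate. On the deposited scale it was 0.12 beside 0.12 for genes of like brightness, and under median centring 0.47 beside 0.47, so its sign followed the scaling as theirs did. Again 59 members (88.1%) changed by less than 0.25, against 68.5% of genes of like brightness.

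NDUFB7 rose 3.25-fold with diclofenac in THP-1 (log2 change 1.70 ± 0.23, limma adjusted p = 0.0496), from 220.6 and 227.3 to 695.4 and 681 in deposited intensity. Both diclofenac arrays lay above both DMSO arrays. In HL-60 the change was 0.12 ± 0.23. The difference of the responses, THP-1 minus HL-60, was 1.58 ± 0.33 (limma adjusted p = 0.355) and was not called, nor was the 1.23 without THP-1 DMSO replicate 2. Without THP-1 DMSO replicate 2, whose 227.3 lies under that array's background, the THP-1 change was 1.35 and still called. The call was lost without any 1 of the 4 HL-60 arrays or without either THP-1 diclofenac array. It was also lost under median centring, without the intensity trend, without an offset and with THP-1 fitted alone. For this probe set the change stayed between 1.35 and 2.09 over the alternative fits, and it ranked 21st from the highest among all 11963 genes.

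The other probe set of NDUFB7 did not show this pattern. It read 190 and 67.3 in HL-60 with DMSO, 70.3 and 53 with diclofenac, 115.9 and 387.9 in THP-1 with DMSO, and 64.6 and 51.5 with diclofenac. In normalised log2 units the DMSO replicates were 7.79 and 6.98 in HL-60 and 7.56 and 8.40 in THP-1, with the highest value on the array of high background. The change in THP-1 was -1.13 ± 0.44 (limma adjusted p = 0.434), and -0.71 without THP-1 DMSO replicate 2. Between the lines it was 0.59 with DMSO and -0.11 with diclofenac, and it was called in no comparison. Which transcripts each of the 2 probe sets binds was not tested. TECR, an enzyme of very long chain fatty acid synthesis whose gene is the next measured one on the same chromosome in RefSeq order, was higher in THP-1 by 0.83 with DMSO (limma adjusted p = 0.000658) and 0.59 with diclofenac (limma adjusted p = 0.00423). It was chosen after its values were seen.

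**Figure D3:**
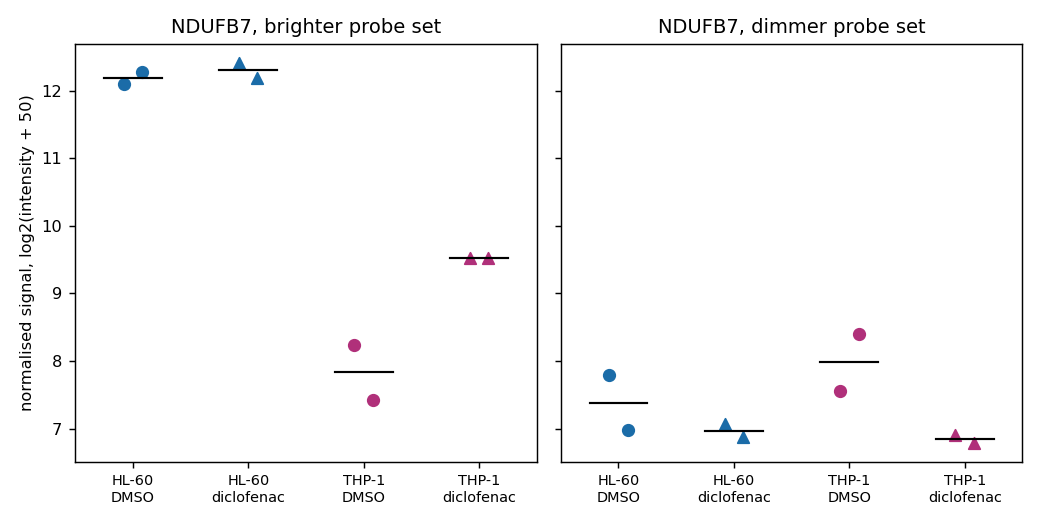
Normalised signal, log2(intensity + 50), of the brighter (left) and dimmer (right) probe set of NDUFB7 on each array, by line and treatment; points are arrays and bars are means of 2. The brighter probe set reads 12.10 to 12.41 in HL-60, 7.42 to 8.24 in THP-1 with DMSO and 9.52 to 9.53 in THP-1 with diclofenac, and the dimmer one reads 6.79 to 8.40 over all arrays.

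Of the other members in THP-1, COX6A2 gave 0.80 and 0.16 without replicate 2 of THP-1 with DMSO, and NDUFA5, an accessory subunit of the matrix arm, gave 0.51 ± 0.19, none of them called. The other probe set of NDUFA5 gave -0.39, so no direction is given for it. NDUFA1 gave 0.45 ± 0.15 (limma adjusted p = 0.391). Complex I was lowest at NDUFS3, a core subunit, with -0.27, complex II ran from SDHA at -0.19 to SDHC at 0.06, and complex III from CYC1 at -0.42 to UQCRB at 0.13. Complex IV was lowest at COX5A, with -0.15, and complex V ran from ATP5F1A at -0.27 to ATP5F1E at 0.29. CYC1 read 11.78 and 12.10 with DMSO and 11.45 and 11.58 with diclofenac, which did not overlap, but its limma adjusted p was 0.372. The medians were -0.05, -0.11, -0.08, -0.05 and -0.01 for complexes I to V. For NDUFS1, NDUFV1, UQCRC1, COX4I1 and ATP5F1B the changes were 0.04, -0.15, -0.12, -0.05 and -0.13. Without THP-1 DMSO replicate 2, NDUFA5 gave 0.31, NDUFA1 0.23, CYC1 -0.27, UQCRB -0.02, SDHC -0.09, NDUFS1 -0.13, NDUFV1 0.07 and ATP5F1B -0.02.

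**Figure D4:**
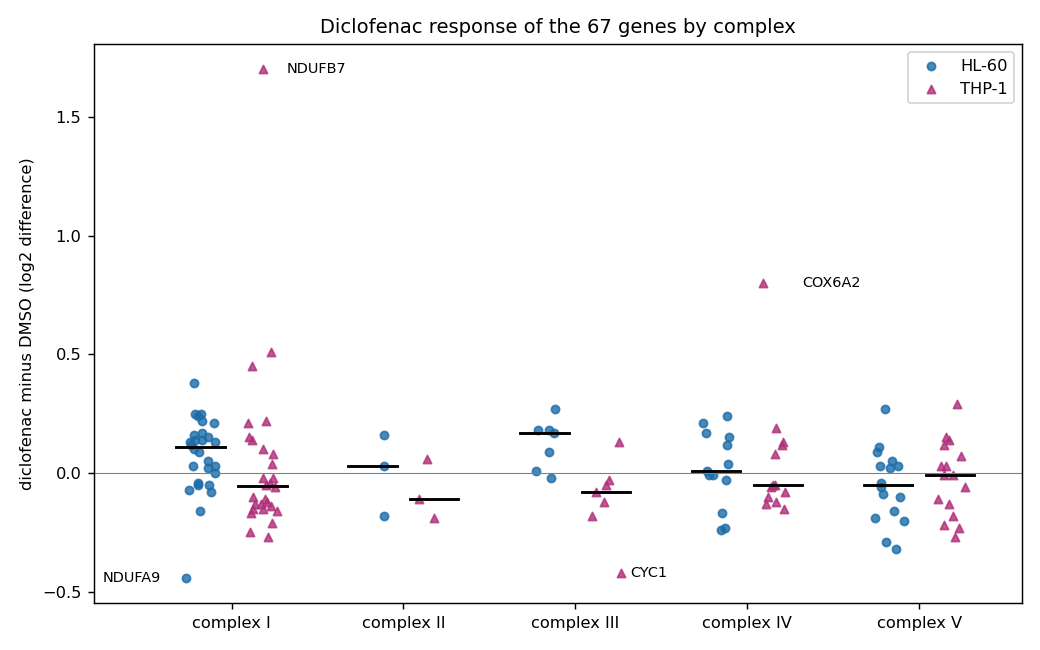
Log2 change with diclofenac against DMSO for each of the 67 genes, by complex, with circles for HL-60 and triangles for THP-1 and a bar at the median of each. Each gene is shown by its brightest probe set. Apart from NDUFB7 at 1.70, COX6A2 at 0.80 and NDUFA5 at 0.51 in THP-1, these lie between -0.44 and 0.45, while some other probe sets lie outside that range.

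The fifth comparison, the response of THP-1 minus that of HL-60, had no called member, with 1 probe set (0.00450%) called in all, and 0.0180% without replicate 2 of THP-1 with DMSO. At an unadjusted limma p under 0.05, 4 members were higher and 9 lower, against 6.94% of all probe sets and 314 of the 1646 genes of like brightness. The median was -0.07, against -0.02 for genes of like brightness. In complex III 0 of 7 genes lay above 0, with a median of -0.12, the lowest being CYC1 at -0.60. On the deposited scale that median was -0.02 and under median centring it was 0.18. Without THP-1 DMSO replicate 2 it was -0.21, with UQCR10 and UQCRC2 above 0 at 0.09 and 0.01 and CYC1 at -0.44. The highest member was NDUFB7 at 1.58, and COX6A2 gave 1.04, or 0.40 without that array.

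Several probe sets were present for 21 members. They disagreed in sign by more than 0.5 log2 units for 2 members in HL-60 with diclofenac, 4 in THP-1 and 5 in the difference of the responses. Between the lines it was 6 with DMSO and 7 with diclofenac. The 2 in HL-60 were ATP5MC2 and NDUFB7, and the 4 in THP-1 were COX5B, COX7C, NDUFA5 and NDUFB7. For the difference of the responses they were ATP5F1C, ATP5MC2, COX7C, NDUFA5 and NDUFB7. In THP-1 with diclofenac the 4 probe sets of ATP5F1C, each above background on all 8 arrays, ranged from -0.98 to -0.18. Those of SDHD ranged from -0.71 to -0.11 and those of COX5B from -0.29 to 0.65. Between the lines with DMSO the members that disagreed were ATP5F1C, ATP5MC2, ATP5MJ, COX5B, NDUFB7 and UQCRB. With diclofenac they were ATP5MG, ATP5MJ, ATP5PO, COX5B, COX7C, NDUFA2 and NDUFB8. ATP5MJ is the case where both were called, since its brighter probe set gave 0.34 with diclofenac (limma adjusted p = 0.0143) and its other one -0.48 (limma adjusted p = 0.0151), so no direction is given for it. For COX7C, a small complex IV subunit, an _x_at probe set gave 0.65 (limma adjusted p = 0.0189), while the brighter one gave 0.18. The representative probe set of 37 members has a name ending in _s_at or _x_at, which marks possible binding to several transcripts, so values of those members may hold signal of near-identical copies.

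Genes that build, feed or surround the chain were counted in 4 related lists, with 15.3% and 13.0% of all probe sets called in the 2 line comparisons. Against DMSO, diclofenac gave no call among their members in either line by limma. At an unadjusted limma p under 0.05 it gave 0, 0, 2 and 4 in HL-60 and 2, 4, 1 and 2 in THP-1, in the order below. Over all probe sets the shares were 4.50% and 10.6%. Of 27 measured assembly factors 5 were higher and 4 lower in THP-1 with DMSO, and 2 and 5 with diclofenac. COX11, which delivers copper to complex IV, gave -1.38 and -1.35, and TMEM70, an ATP synthase assembly factor, -0.99 and -1.01. NDUFAF3, a complex I assembly factor, gave 1.31 and 0.90. The list medians were 0.16 and 0.07. Without THP-1 DMSO replicate 2 the DMSO median was 0.05.

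Of 17 tricarboxylic acid cycle and pyruvate dehydrogenase genes 6 were higher and 5 lower with DMSO, and 1 and 4 with diclofenac, with medians of 0.05 and -0.09. All 3 subunit genes of the NAD-dependent isocitrate dehydrogenase were lower in both comparisons, IDH3A by -0.91 and -1.18, IDH3B by -0.81 and -0.72, and IDH3G by -1.44 and -1.35. PDHA1, the catalytic alpha subunit of pyruvate dehydrogenase, was lower by -1.55 and -1.24. Citrate synthase, CS, was higher by 0.69 with DMSO. Without THP-1 DMSO replicate 2 the DMSO median was 0.02, and fewer genes were called higher with DMSO.

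Of 18 genes of mitochondrial transcription, genome upkeep and their nuclear regulators 0 were higher and 1 lower with DMSO, the lower being TFEB, a regulator of lysosomes and mitochondria, at -1.84 and at -1.12 without THP-1 DMSO replicate 2. With diclofenac 3 were higher and 1 lower, among them TFAM, which packages mitochondrial DNA, at 0.54 and YY1 at 0.90. The list medians were 0.19 and 0.15. These medians were 0.17 and 0.16 when THP-1 DMSO replicate 2 was left out. Of 17 carriers and electron donors around the chain 4 were higher and 3 lower with DMSO, and 4 and 4 with diclofenac, with medians of -0.07 and -0.11, the first -0.00 without THP-1 DMSO replicate 2. SLC25A5, which exchanges ADP for ATP across the inner membrane, was lower by -1.04 and -1.25, ETFA, a donor of electrons from fatty acids, by -0.87 and -0.78, and VDAC3, an outer membrane channel, by -0.78 and -0.48. UCP2, an inner membrane carrier, was higher by 1.19 and 1.08, and SLC25A3, the phosphate carrier, by 0.55 and 0.33. The lowest difference of this list with DMSO was that of ETFB, at -1.72. With diclofenac against DMSO the list ran from UCP3 at -0.71 to ETFB at 1.03 in HL-60. In THP-1 it ran from HIGD2A at -0.22 to ETFB at 1.55, none of them called.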

How the data were processed

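The deposited intensity of each probe set, taken from the authors' value table of the series, was linear, and the software that made it is not given in the sources used here. Its mean without the highest and lowest 2% was 500.1 to 500.2 on each array. The 67 members and the related lists were chosen with earlier results of these data known. Of 22277 probe sets 62 controls were left out. The platform annotation gave 1 symbol for 19064 of the rest, several for 1043 and did not list 2108. Intensities were computed as log2(intensity + 50) and quantile normalized. Group means of the 4 groups were fitted on all 8 arrays with limma 3.58.1 in R 4.3.3, with an intensity trend, 4 residual and 4.41 prior degrees of freedom. P-values of each contrast were adjusted by Benjamini-Hochberg over 22215 probe sets. Errors are moderated standard errors. The titles call the arrays biological replicates, and with 2 a group their number limits the precision. Replicate numbers were not treated as pairs, since the deviations of same-numbered arrays correlated at -0.004236 (HL-60) and -0.008065 (THP-1). Named were NDUFB7, every called member, the extremes of each complex in each contrast, a set of main subunits, isoforms and members whose probe sets disagree. A non-coding antisense gene, NDUFB2-AS1, and a pseudogene were left out.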

Additional observations from a re-analysis of the deposited data

How the results depend on the processing

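Alternatives were 2 scalings, 2 offsets, a filter on the dimmest 40%, no intensity trend, the replicate block, each line alone, each array left out, and 2 other choices of probe set. The number of members called in HL-60 with diclofenac was 0 under each of them that gave a count. In THP-1 with diclofenac it fell from 1 to 0 under median centring, without the intensity trend, without an offset and with the line alone, and ranged from 0 to 15 with an array left out, the 15 without THP-1 DMSO replicate 1. For the difference of the responses it ranged from 0 to 6 with an array left out, the 6 without that same array. Without THP-1 DMSO replicate 1, that group rests on replicate 2 alone, the array of high background. In both of these contrasts members were then called less often than genes of like brightness and than all probe sets. The 15 and the 6 therefore do not show a response particular to this family. Between the lines with DMSO 20 (29.9%) were called on the deposited scale, 19 (28.4%) without the trend and 1 (1.49%) under median centring. Of genes of like brightness 34.8%, 28.4% and 5.89% were called there, and of all probe sets 13.1%, 11.8% and 5.15%. With diclofenac 1 (1.49%) was called under median centring, against 3.65% of genes of like brightness and 4.63% of all probe sets. The cause was not tested. With the replicate block 0, 1, 0, 32 and 28 members were called in HL-60, THP-1, the difference of the responses and the lines with DMSO and with diclofenac. In the last 2 these were 47.8% and 41.8% of members, against 45.6% and 40.2% of genes of like brightness.

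Medians of the 67 genes, deposited scale first and median centring second, were 0.12 and 0.28 in HL-60, 0.12 and 0.47 in THP-1, and -0.00 and 0.19 for the difference of the responses. The last was -0.12 to -0.05 with an array left out, the lowest without THP-1 DMSO replicate 2. Between the lines with DMSO they were 0.11 and -0.13, 0.17 to 0.22 with an array left out and 0.13 when a gene's probe sets were averaged. With diclofenac they were 0.10 under centring, 0.13 with that average and 0.06 with probe sets not ending in _s_at or _x_at. With the latter probe sets the sign turned for ATP5MC2 (-0.50), COX5B (-0.73), NDUFB7 (0.59) and ATP5MJ (-0.47, uncalled at 0.24 before) between the lines with DMSO, for ATP5MG (-0.52) and ATP5MJ (-0.48) with diclofenac, and for NDUFB7 in THP-1 with diclofenac (-1.13). ATP5MJ was -0.07 with the mean of its probe sets. Under median centring ATP5PD (-0.02), COX5B (-0.06) and COX6A1 (-0.12) turned sign between the lines with DMSO.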
